A study of Mus musculus with 6 samples.

Results

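Chemokine ligands are small secreted proteins that bind receptors on leukocytes and direct where these cells move. The genes described here are 10 members of the family, chosen by name as the rows of the deposited expression table for Ccl2, Ccl3, Ccl4, Ccl6, Ccl7, Ccl9, Ccl12, Cxcl2, Cxcl10 and Cxcl16, so they are 10 of 35237 genes, and every one of them was found in both deposited tables. They were measured by RNA-Seq in bone marrow monocytes (BMDM) and brainstem microglia (BSM) of C57BL/6 mice at 6 weeks of age, with 3 libraries from each cell type. Both populations were sorted by FACS, a method that separates cells by antibody staining, on CD11b and without Ly6G. BMDM were further sorted as CD45high and CD115+, and BSM as CD45low and CD115low. The mice carried no other treatment or allele in the labels, each library came from cells pooled from several mice, and the labels give male mice for replicate 1 in both groups and female mice for replicates 2 and 3. The study's main text instead describes pools from male mice, with 10 mice per set. The Y-linked genes Eif2s3y, Kdm5d and Uty were above 0 in replicate 1 of both cell types and were listed at 0 in the other 4 libraries.

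In the CC subfamily the first cysteines of the protein are adjacent, whereas in the CXC subfamily another residue separates them. Ccl2, Ccl7 and Ccl12 act on the receptor CCR2 and draw monocytes out of the bone marrow and into tissue, Ccl3 and Ccl4 attract monocytes, macrophages and lymphocytes, and Ccl6 and Ccl9 are rodent ligands of CCR1 made by myeloid cells. Microglia that sense injury or infection are a known source of chemokines in the brain.

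Levels are given as FPKM, cDNA fragments counted per length of a gene's exons and relative to the reads mapped in the library, so they can be compared between genes. The study lists the reads mapped in each library, but neither table holds the reads behind a gene's value, so no counting interval is given. BSM replicate 1 stood apart from the other libraries. It had 11237 genes above 0, against 16693 and 16977 in BSM replicates 2 and 3 and 14599 to 16809 in BMDM. The study's RNA quality table gives it by far the lowest concentration and integrity. All its values therefore rest on little RNA of low measured integrity, and those at 0 also on a library with fewer genes detected. The sum of FPKM over a library was 163199 to 194184 in BMDM and 68287.8 to 75021.4 in BSM. Among the 6364 genes that reached 3 FPKM in any library, the median log2 fold change was 0.81 toward BMDM with the authors' scaling, 0.14 after upper quartile scaling, 0.01 after quantile normalization, 0.07 after scaling to the same sum without the mitochondrially encoded genes and -0.23 after scaling every library to the same sum. Calls that these scalings changed are named beside the genes below. The markers of the labelled cell types stood where the labels put them, as all 7 monocyte markers were higher in BMDM and all 7 microglia markers were higher in BSM, also after each rescaling and without BSM replicate 1. The listed markers of astrocytes, neurons, lymphocytes and endothelial cells each summed to at most 3.82 FPKM in any library, and those of oligodendrocytes to at most 8.62.

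BMDM and BSM held chemokine ligand transcripts of different composition. In BMDM, Ccl6 and Ccl9 made up 85.4% to 89.8% of the summed FPKM of the 10 ligands, and in BSM they made up 26.3% to 32.1%. Ccl3 was the highest ligand in every BSM library, at 34.4% to 46.6% of the sum, against 6.26% to 8.74% in BMDM. The summed FPKM of the 10 ligands was 88.3, 132 and 102 in BMDM replicates 1, 2 and 3 and 32.8, 39.7 and 35.4 in the BSM replicates. As a share of all FPKM in the library the ligands took 0.0541% to 0.0682% in BMDM and 0.0474% to 0.0529% in BSM, so by that measure the highest BSM library lay just under the lowest BMDM library. These are bulk libraries, in which the number of cells that make a transcript and the amount made per cell cannot be told apart.

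**Figure D1:**
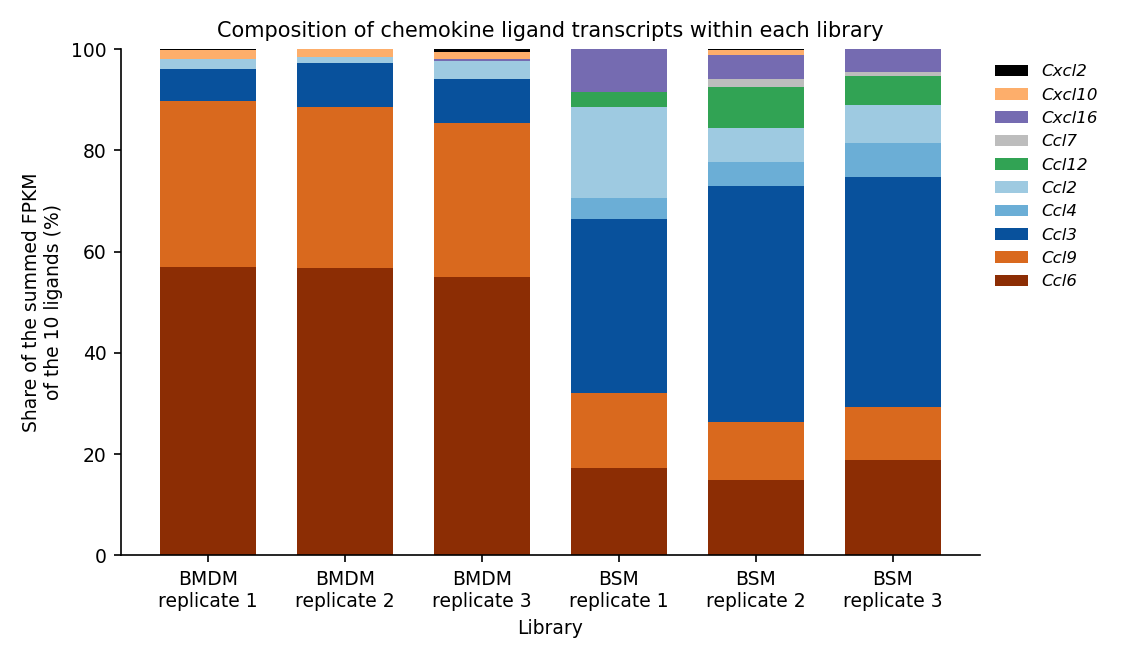
Share of the summed FPKM of the 10 chemokine ligands (percent, y axis) that each ligand takes in each of the 6 libraries (x axis), as stacked bars. Ccl6 and Ccl9 together fill 85.4% or more of each BMDM bar and 32.1% or less of each BSM bar, where Ccl3 is the largest block.

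A ratio of 2 ligands inside a library does not change when the library is multiplied by a factor. The level of Ccl3 was 0.110, 0.154 and 0.157 times that of Ccl6 in BMDM replicates 1, 2 and 3 and 1.998, 3.13 and 2.40 times in the BSM replicates, and the groups did not overlap. On the log2 scale this ratio had a mean of -2.85 ± 0.29 (SD, n = 3) for BMDM and of 1.303 ± 0.32 (SD, n = 3) for BSM, and the two-sided exact permutation test gave p = 0.1, the smallest value that 3 against 3 libraries allow, and 0.167 after Benjamini-Hochberg adjustment over the 5 ratios computed. The ratios of Ccl3 to Ccl9 and of Ccl3 to Ccl4 also separated the groups without overlap, each with the same exact p. The ratio of Ccl6 to Ccl9 was 1.74 to 1.81 in BMDM and 1.16 to 1.81 in BSM, and the groups overlapped (exact permutation p = 0.4, adjusted 0.5). The ratio of Ccl3 to Ccl2 overlapped as well, with 2.40 to 8.26 in BMDM and 1.90 to 6.93 in BSM (exact permutation p = 1.0).

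Within BMDM the order of mean FPKM was Ccl6, Ccl9, Ccl3, Ccl2, Cxcl10, Cxcl2, Cxcl16 and Ccl4, followed by Ccl7 and Ccl12, which were listed at 0. The steps from Ccl6 to Ccl9, from Ccl9 to Ccl3 and from Ccl3 to Ccl2 were larger than the spread between libraries, whereas Ccl2 and Cxcl10 overlapped, as did Cxcl2, Cxcl16 and Ccl4. Within BSM the order was Ccl3, Ccl6, Ccl9, Ccl2, Cxcl16, Ccl12, Ccl4, Ccl7, Cxcl10 and Cxcl2. There Ccl3 lay above Ccl6 and Ccl6 above Ccl9 without overlap, and the ranges of Ccl9 and Ccl2, of Ccl2 and Cxcl16, of Cxcl16, Ccl12 and Ccl4, and of Ccl7, Cxcl10 and Cxcl2 overlapped. In ALEXA-Seq, the authors' second quantification of the same libraries, the ratio of Ccl6 to Ccl9 was 0.645 to 1.10 in BSM and 1.11 to 1.19 in BMDM. The order of Ccl6 and Ccl9 was thus not kept in every BSM library. The ALEXA-Seq unit is not given, so whether its values can be compared between genes is not known.

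**Figure D2:**
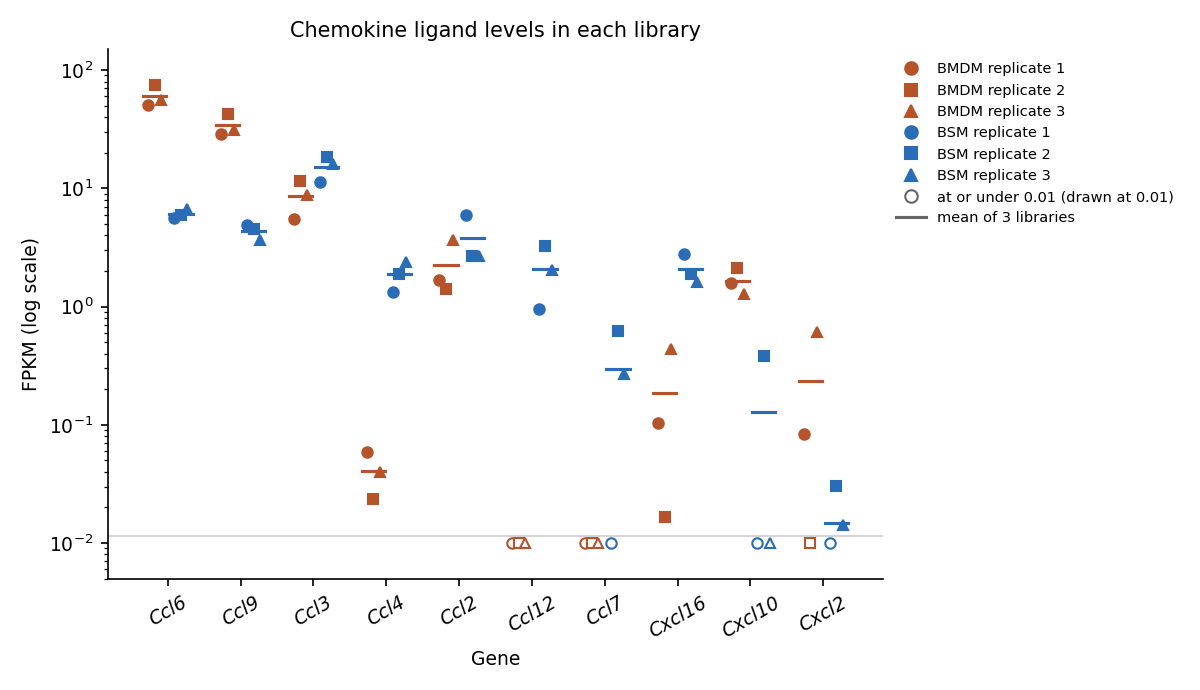
FPKM (y axis, log scale) of the 10 chemokine ligands (x axis) in 3 BMDM and 3 BSM libraries, with a symbol for each replicate and a line at the mean of the 3 libraries. Open symbols on the lowest line stand for values at or under 0.01, which hold every BMDM library for Ccl12 and Ccl7, and BMDM lie well above BSM for Ccl6 and Ccl9.

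The levels were compared with limma, a linear model for each gene, on log2(FPKM + 1) over the 6364 genes that reached the minimum of 3, with Benjamini-Hochberg adjustment. On this scale the fold change of a low gene is understated. Of the 10 ligands, 5 reached the minimum, and 3 of these had an adjusted p under 0.05, where 54.5% of all genes tested did. Ccl6 and Ccl9 were higher in BMDM, as were 45.3% of all genes tested, and Ccl12 was higher in BSM, as were 9.22% of all genes tested. The groups did not overlap in 3 of the 5 ligands tested, against 66.8% of all genes tested. After quantile normalization all 5 were called, 2 higher in BMDM and 3 in BSM, against 40.9% of all genes tested (21.5% and 19.4%), and the same counts came after scaling to the same sum, against 40.1% of all genes tested (15.2% and 24.9%). The median log2 fold change of the 5 was -0.55, beside 0.81 over all genes tested. Under an FPKM minimum of 1, which admitted 9637 genes and 8 of the 10 ligands, 3 ligands were higher in BMDM and 3 in BSM, and 44.9% of all genes tested were called (37.2% higher in BMDM and 7.66% higher in BSM). The groups did not overlap in 6 of these 8 ligands, against 61.0% of all genes tested. Their median log2 fold change was then -0.66, beside 0.58 over all genes. Ccl12, Ccl4, Cxcl16 and Cxcl10 passed their minimum only through the group in which they were higher, so their calls are not independent of that filter. In ALEXA-Seq, the authors' second quantification of the same libraries, 6 of the ligands were among the 6364 entries tested, and 5 were called, 2 higher in BMDM and 3 in BSM, against 47.9% of all entries tested (37.1% and 10.9%). The groups did not overlap in 5 of the 6, against 66.1%. These counts describe the 10 genes and were not tested as a set.

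Ccl6 and Ccl9, the CCR1 ligands, were higher in BMDM. The FPKM of Ccl6 was 50.4, 75.1 and 56.2 in BMDM replicates 1, 2 and 3 and 5.65, 5.92 and 6.68 in the BSM replicates. It ranked among the top 1.85% of genes above 0 in every BMDM library and among the top 9.54% to 16.9% in BSM. Every BMDM library lay above every BSM library, and the mean of 60.6 ± 12.9 FPKM (SD, n = 3) was 9.96-fold that of BSM, 6.08 ± 0.54 (SD, n = 3). The log2 fold change was 3.10 (SE 0.24, limma adjusted p = 4.14e-05). Ccl9 stood at 28.9, 42.2 and 31.1 FPKM in BMDM and at 4.89, 4.53 and 3.69 in BSM, again without overlap, and its means differed 7.80-fold. Its log2 fold change was 2.70 (SE 0.24, limma adjusted p = 9.77e-05).

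In ALEXA-Seq, whose values are linear but of a unit that is not given in the sources used here, the folds were 9.30 for Ccl6 and 7.20 for Ccl9. Scaling all libraries to the same sum gave the smallest log2 fold changes, 1.88 for Ccl6 and 1.52 for Ccl9, and both were still higher in BMDM (limma adjusted p = 0.000455 and 0.00147). Both genes were highest in BMDM replicate 2, the library in which the 8 granulocyte markers summed to 166 FPKM, against 27.8 and 31.3 in the other BMDM libraries and 0 to 0.136 in BSM. Without that library the folds were 8.76 for Ccl6 and 6.87 for Ccl9. The Ccl6 gene lies inside the span of E230016K23Rik, which is on the opposite strand in GENCODE M21 and had 2.28 to 4.42 FPKM in BMDM and 0 to 0.0738 in BSM. The Ovation RNA-Seq method was not stated to keep the strand, so reads from their shared span cannot be told apart.

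The 2 genes are neighbors on chromosome 11. In the mm9 build, which the files' processing notes name, Ccl9 spans chr11:83386421-83392138 and Ccl6 spans chr11:83401384-83406589, with 9.25 kb between them, and Ccl3 follows 54.8 kb further at chr11:83461346-83462857. Across 407 aligned bases the longest GENCODE M21 transcripts of Ccl6 and Ccl9 were 69.0% identical. Near-identical sequence from other genes (stretches of 100 bases or longer with 95% or more of the bases the same) covered 5.42% of the longest Ccl9 transcript and none of that of Ccl6. RefSeq upstream sequence (GRCm38.p6) was found for 6 of the 10 ligands, namely Ccl3, Ccl6, Ccl9, Ccl12, Cxcl2 and Cxcl10. The 250 bases before the start of both genes are printed because the genes are adjacent and were both higher in BMDM, and that of Ccl3 because it is the next member along the chromosome and was not higher in BMDM. All 3 genes are on the minus strand, and each window is read 5′ to 3′ on that strand, from chr11:83593088-83593337 for Ccl6, chr11:83578637-83578886 for Ccl9 and chr11:83649379-83649628 for Ccl3. Capitals mark matches on either strand to the motifs GAGGAA, known as the PU.1 core, TGANTCA, the AP-1 site, and TATAAA, the core of a TATA box, and to the C/EBP, interferon response element (core) and NF-kappaB motifs.
Ccl6: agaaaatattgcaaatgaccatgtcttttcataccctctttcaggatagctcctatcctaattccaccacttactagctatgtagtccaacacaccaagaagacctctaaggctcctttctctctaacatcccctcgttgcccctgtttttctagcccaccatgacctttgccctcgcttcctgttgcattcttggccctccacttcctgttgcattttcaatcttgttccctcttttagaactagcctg
Ccl9: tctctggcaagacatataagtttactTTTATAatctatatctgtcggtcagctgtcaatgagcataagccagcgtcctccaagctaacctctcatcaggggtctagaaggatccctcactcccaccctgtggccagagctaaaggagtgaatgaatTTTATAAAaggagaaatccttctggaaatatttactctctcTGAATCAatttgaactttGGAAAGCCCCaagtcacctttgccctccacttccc
Ccl3: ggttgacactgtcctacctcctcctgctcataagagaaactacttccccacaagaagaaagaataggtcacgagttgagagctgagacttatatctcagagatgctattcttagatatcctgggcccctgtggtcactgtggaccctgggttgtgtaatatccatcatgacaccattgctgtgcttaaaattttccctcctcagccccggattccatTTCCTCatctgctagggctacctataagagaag
The window of Ccl6 held none of these letters. That of Ccl9 held an AP-1 match 53 bases before the start, an NF-kappaB match 35 bases before it, and 3 TATAAA matches, of which 2 overlap each other on opposite strands. That of Ccl3 held 1 PU.1 core match 33 bases before the start. The first bases after that start were not found in a GENCODE M21 transcript of Ccl3, unlike those of Ccl6 and Ccl9, so the distance rests on the RefSeq start. Over all 32851 windows of 250 bases, 23.3% held the PU.1 core, 6.75% the AP-1 motif, 9.56% the C/EBP motif, 2.98% the interferon response core, 12.4% the TATA box and 7.25% the NF-kappaB motif. A match describes letters in the window only.

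Ccl3 and Ccl4, neighbors on chromosome 11, had higher means in BSM, with a call for Ccl4 and one that depended on the processing for Ccl3. Ccl3 was at 5.53, 11.6 and 8.81 FPKM in BMDM replicates 1, 2 and 3 and at 11.3, 18.5 and 16.1 in the BSM replicates. BSM replicate 1 lay just under BMDM replicate 2, so the groups overlapped. The mean in BSM, 15.3 ± 3.67 (SD, n = 3), was 1.77-fold that in BMDM, 8.64 ± 3.03 (SD, n = 3). The log2 fold change was -0.78 (SE 0.32, 95% interval -1.51 to -0.046) with a limma adjusted p of 0.0681. It passed the threshold without BMDM replicate 2 (-0.998, adjusted p = 0.0482) and without BSM replicate 1 (-0.97, adjusted p = 0.0274).

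All 4 rescalings made Ccl3 higher in BSM, with log2 fold changes from -1.54 after quantile normalization (limma adjusted p = 0.00467) to -1.995 after scaling to the same sum (limma adjusted p = 0.00145). In ALEXA-Seq its values were 76.4, 143 and 114 in BMDM and 153, 247 and 228 in BSM, without overlap. The log2 fold change there was -0.92 (SE 0.32, limma adjusted p = 0.0490), and the call was lost without BMDM replicate 1, BMDM replicate 3, BSM replicate 2 or BSM replicate 3 (limma adjusted p = 0.128, 0.111, 0.137 and 0.123).

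Ccl4 (chr11:83476086-83478185) lies 13.2 kb from Ccl3, yet the levels of the neighbors were unlike in BMDM. Its FPKM was 0.0585, 0.0236 and 0.0396 in BMDM and 1.33, 1.90 and 2.38 in BSM. The groups did not overlap and the ratio of means was 46.1, which rests on BMDM values under 0.06 FPKM. Under the minimum of 1, which Ccl4 reached in BSM only, the log2 fold change was -1.45 (SE 0.23, limma adjusted p = 0.00171). In ALEXA-Seq Ccl4 reached the main comparison, with 2.57, 0.666 and 2.58 in BMDM and 25.5, 72.6 and 80.6 in BSM, and its log2 fold change was -4.29 (SE 0.63, limma adjusted p = 0.00176). The level of Ccl3 was 94.6 to 490 times that of Ccl4 in BMDM and 6.74 to 9.75 times in BSM.

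Among Ccl2, Ccl7 and Ccl12, the CCR2 ligands, Ccl12 separated the cell types and Ccl2 did not. These genes lie together on chromosome 11, with Ccl2 at chr11:81849073-81850955, Ccl7 8.26 kb away at chr11:81859214-81861027 and Ccl12 a further 54.3 kb away at chr11:81915347-81916902. Ccl12 was listed at 0 in all 3 BMDM libraries and at 0.949, 3.27 and 2.02 FPKM in the BSM libraries. A 0 in the Cufflinks table can be a failed estimate, as Itgam, which encodes the sorted antigen CD11b, was listed at 0 in 1 BSM library, but the ALEXA-Seq table also listed Ccl12 at 0 in every BMDM library and at 16.8, 57.3 and 38.1 in BSM. Ccl12 reached the FPKM minimum of 3 in BSM replicate 2 only, so it was tested through the group in which it was high. The genes tested stayed the same when a library was left out. Ccl12 was called without BSM replicate 2 (limma adjusted p = 0.0443), although only that library had admitted it. It was also called without BSM replicate 1 (log2 fold change -1.85, limma adjusted p = 0.000646). No fold is given against a group at 0. The log2 fold change, which depends on the pseudocount, was -1.55 (SE 0.38, limma adjusted p = 0.0101) in FPKM and -5.10 (SE 0.63, limma adjusted p = 0.000811) in ALEXA-Seq. The upstream window of Ccl12 is printed because the gene was the only ligand listed at 0 in one cell type and called higher in the other. It covers chr11:82101595-82101844 (GRCm38.p6, plus strand), and capitals mark the same motifs.
Ccl12: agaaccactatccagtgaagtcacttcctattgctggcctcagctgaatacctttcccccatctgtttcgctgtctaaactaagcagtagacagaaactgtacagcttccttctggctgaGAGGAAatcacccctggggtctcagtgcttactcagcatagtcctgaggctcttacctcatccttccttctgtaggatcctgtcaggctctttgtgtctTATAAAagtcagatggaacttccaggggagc
It held a PU.1 core match 130 bases and a TATA box match 31 bases before the start.

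Ccl7 was listed at 0 in the BMDM libraries and in BSM replicate 1, and at 0.617 and 0.267 FPKM in BSM replicates 2 and 3. ALEXA-Seq gave 0 in the same 4 libraries and 9.65 and 4.16 in the others. The gene did not reach the minimum of 1, and without a minimum its log2 fold change was -0.34 (SE 0.17, limma adjusted p = 0.234). The 4 rescalings made no call, whereas without BSM replicate 1 the value was -0.52 and passed the threshold (limma adjusted p = 0.0310). The 7 markers of perivascular and other border macrophages, cells at the edges of the brain, were read in BSM because they too carry CD11b, although the CD45low gate is meant to leave out macrophages with high CD45 and the study describes its sorted populations as nearly pure. They summed to 2.67, 5.74 and 3.50 FPKM in BSM replicates 1, 2 and 3, and all 7 were above 0 there in at least 1 library. Lyve1 was at 0, 1.87 and 0.565 FPKM, Mrc1 at 0.389, 1.75 and 1.41 and Cd163 at 0.0810, 0.450 and 0.216, so these 3 markers, with Siglec1 and Stab1, were highest in BSM replicate 2 and lowest in replicate 1, as Ccl12 and Ccl7 were. The other 2 markers were not, with F13a1 at 1.54, 0.543 and 0.253 FPKM and Pf4 at 0.0737, 0.0730 and 0.163. The order was not particular to border macrophage markers. Ccl3, Cxcl10 and Cxcl2 also had it, and Ccl2, Ccl4, Ccl6, Ccl9 and Cxcl16 did not. Of the microglia markers only Sall1 had it. BSM replicate 1 was also the library with the fewest genes above 0. The border macrophage list summed to 113 to 159 FPKM in BMDM, of which F13a1, a gene that monocytes also express, held 111 to 157. The part of border macrophages in the levels of Ccl7 and Ccl12 was not tested. Ccl2, the main attractant of CCR2-bearing monocytes, was at 1.68, 1.40 and 3.68 FPKM in BMDM and at 5.95, 2.67 and 2.67 in BSM. The groups overlapped, since BMDM replicate 3 exceeded BSM replicates 2 and 3. Its log2 fold change was -0.55 (SE 0.37, 95% interval -1.41 to 0.32, limma adjusted p = 0.246), and leaving out BSM replicate 1 made it -0.24. The 4 rescalings gave -1.17 to -1.52, each with a limma adjusted p under the threshold (0.0212 to 0.0458), so whether Ccl2 differed depended on the scaling. The longest transcripts of these 3 genes resembled each other at 68.3% to 72.5% identity over 218 to 257 aligned bases, and none had a match at 95% or more to another gene.

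**Figure D3:**
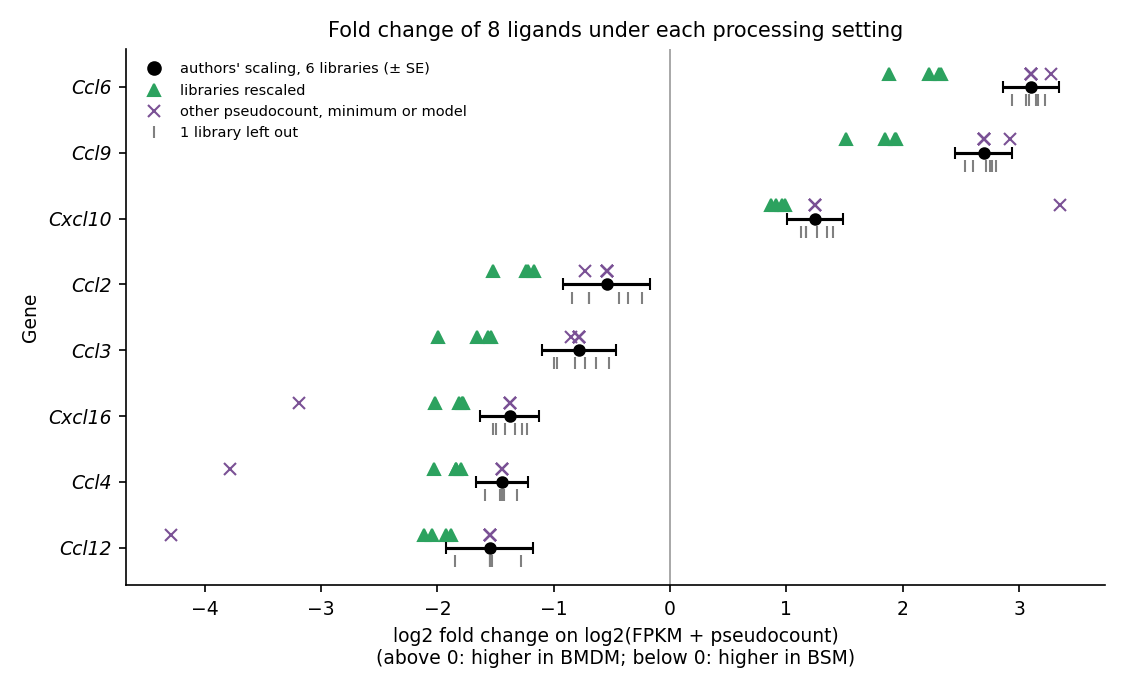
Log2 fold change (x axis, above 0 higher in BMDM) of the 8 ligands that reached an FPKM of 1 (y axis). Black points with SE give the authors' scaling with all 6 libraries, triangles the rescaled libraries, crosses another pseudocount, minimum or model, and ticks the fits without 1 library. No symbol lies on the other side of 0 from its black point, and of the genes below 0 it is Ccl2 and Ccl3 that rescaling shifts most, to -1.17 or lower and to -1.54 or lower.

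Of the 3 CXC ligands, Cxcl16 was higher in BSM, Cxcl10 was higher in BMDM, and Cxcl2 was under 0.1 FPKM in 5 of 6 libraries. Cxcl16 encodes a membrane-bound chemokine that is released by proteases and binds CXCR6. It was at 0.104, 0.0166 and 0.440 FPKM in BMDM and at 2.76, 1.90 and 1.604 in BSM, without overlap. Under the minimum of 1, which it reached in BSM only, its log2 fold change was -1.38 (SE 0.25, limma adjusted p = 0.00348). The ratio of means was 11.2 and was 34.6 without BMDM replicate 3. One edge of Cxcl16 (chr11:70267485-70273486) overlaps Zmynd15, which had 0 to 0.0162 FPKM in BMDM and 0.147 to 0.445 in BSM, and sequence shared with Zmynd15 covered 20.5% of the longest Cxcl16 transcript. ALEXA-Seq gave Cxcl16 1.25, 0.388 and 4.77 in BMDM and 28.3, 30.3 and 23.3 in BSM.

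Cxcl10, an interferon-induced ligand of CXCR3, was at 1.58, 2.11 and 1.28 FPKM in BMDM. In BSM it was listed at 0, 0.382 and 5.32e-05. The groups did not overlap, and only BMDM libraries reached the minimum of 1. Under that minimum the log2 fold change was 1.24 (SE 0.24, limma adjusted p = 0.00466) and 1.17 without BSM replicate 1 (limma adjusted p = 0.00699). In ALEXA-Seq it had 15.4, 11.9 and 12.5 in BMDM and 0, 1.20 and 2.97 in BSM. Cxcl10 (chr5:92775664-92777915) lies within the span of Art3, which was listed at 0, 0 and 0.396 FPKM in the BSM replicates, so the share of reads given to each gene in BSM replicate 3 is uncertain. Of the 9 interferon-stimulated genes listed beside it, 6 reached the minimum of 3 and 5 of these were higher in BMDM, with Oasl2 (log2 fold change 4.23, limma adjusted p = 0.000522) and Mx1 (2.10, limma adjusted p = 0.000371) among them. Of these 6, Ifit1, Ifit2, Ifit3, Rsad2 and Mx1 reached that minimum in BMDM only, so the count and the median are not independent of the filter. Over all genes tested 45.3% were higher in BMDM. After the 4 rescalings 968 to 1379 of the 6364 genes tested were, and after each of them 3 of these 6 were, Oasl2 and Mx1 among them. Their median log2 fold change was 1.68, beside 0.81 over all genes, and their summed FPKM was 61.3 to 80.2 in BMDM and 3.88 to 8.41 in BSM. The upstream window of Cxcl10 (GRCm38.p6 chr5:92348890-92349139, minus strand) is shown because it held the interferon response core, 213 bases before the start, as 1 of the 6 ligand windows.
Cxcl10: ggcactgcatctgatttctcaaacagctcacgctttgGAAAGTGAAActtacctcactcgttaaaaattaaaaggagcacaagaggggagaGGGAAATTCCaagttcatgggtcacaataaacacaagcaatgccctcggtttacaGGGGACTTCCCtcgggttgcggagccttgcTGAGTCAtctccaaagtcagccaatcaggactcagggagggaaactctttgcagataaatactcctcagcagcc
It also held an AP-1 match 74 bases before the start and NF-kappaB matches 159, 104 and 103 bases before it, the last 2 overlapping.

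Cxcl2, a ligand of the neutrophil receptor CXCR2, was at 0.0843, 0.00732 and 0.609 FPKM in BMDM and at 0, 0.0305 and 0.0141 in BSM. The ratio of means of 15.7 rests on BMDM replicate 3 and was 3.08 without it. The groups overlapped, and without a minimum the log2 fold change was 0.25 (SE 0.18, limma adjusted p = 0.414). The same BMDM replicate 3 was also the highest of the BMDM libraries for Ccl2 and Cxcl16.

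The 12 immediate early genes, which cells switch on within minutes of a stimulus, were measured in the same libraries. Their summed FPKM was 180, 250 and 403 in BMDM replicates 1, 2 and 3 and 1324, 944 and 807 in the BSM replicates, so BMDM replicate 3 was the highest BMDM library and BSM replicate 1 the highest BSM library, as for Ccl2 and Cxcl16. Ccl3, Ccl4 and Ccl12 were instead lowest in BSM replicate 1 among the BSM libraries. Zfp36 held most of each sum of the immediate early genes, with 157, 200 and 335 FPKM in BMDM and 939, 653 and 573 in BSM. Egr1, Egr2, Jun, Junb, Ier2 and Ier3 were not highest in BMDM replicate 3 among the BMDM libraries. Egr2, Atf3, Ier2 and Nfkbia were not highest in BSM replicate 1 among the BSM libraries. Of the 9 that reached the minimum, 5 were higher in BSM, namely Egr1, Jun, Fosb, Egr2 and Zfp36, and none was higher in BMDM, where 9.22% of all genes tested were higher in BSM and 45.3% in BMDM. After the 4 rescalings 1051 to 1585 of the 6364 genes tested were higher in BSM, and 8 to 9 of these 9 were. Without BSM replicate 1, 738 of the 6364 were higher in BSM, and 5 of these 9 were. Their median log2 fold change was -1.68, beside 0.81 over all genes. Egr1, Egr2, Fosb and Atf3 reached the minimum in BSM only, so these counts and the median are not independent of the filter. Jun and Zfp36 reached it in both cell types. The part of the immediate early genes in the levels of Ccl2, Ccl3, Ccl4, Ccl12 or Cxcl16 was not tested.

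Receptors of these ligands were measured in the same libraries. Ccr2, the receptor of Ccl2, Ccl7 and Ccl12, was at 166, 136 and 158 FPKM in BMDM and at 0.0129, 0.408 and 0.366 in BSM (log2 fold change 6.94, SE 0.24, limma adjusted p = 2.42e-06). Ccr2 was thus high in the cell type in which its ligands Ccl7 and Ccl12 were listed at 0. Its ligand Ccl2 was at 1.40 to 3.68 FPKM in that cell type and overlapped BSM, and Ccl7 was also at 0 in BSM replicate 1. Ccr1, bound by Ccl3, Ccl6, Ccl7 and Ccl9, was at 1.74, 1.76 and 2.21 FPKM in BMDM and at 0, 0.746 and 0.360 in BSM, and under the minimum of 1 it was higher in BMDM (log2 fold change 1.12, SE 0.26, limma adjusted p = 0.0106). The 4 rescalings kept that direction and ended the call, with log2 fold changes of 0.60 to 0.78 (limma adjusted p = 0.0505 to 0.202). Ccr1 reached the minimum of 1 in BMDM only.

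The other receptors were low. Cxcr2, bound by Cxcl2, had 0.512, 3.10 and 0.569 FPKM in BMDM and at most 0.0448 in BSM (log2 fold change 1.07, SE 0.46, limma adjusted p = 0.0829), and its highest value was in BMDM replicate 2, the library with the most granulocyte transcripts. Cxcr6, bound by Cxcl16, had 0.244 to 0.443 FPKM in BMDM and 0.492 to 0.943 in BSM, under the minimum of 1. Cxcr3, bound by Cxcl10, stayed at or under 0.0338 FPKM, and Ccr3, another receptor of Ccl7, at or under 0.657. Of the 5 atypical receptors, which bind chemokines or related ligands without the usual signalling, only Ccrl2 reached an FPKM of 1 (0.457 to 1.09 in BMDM and 0.903 to 1.10 in BSM), and its levels overlapped. It was not called with the authors' scaling (log2 fold change -0.26, limma adjusted p = 0.379) and was higher in BSM after each rescaling (limma adjusted p = 0.0209 to 0.0494). The proteases that release Cxcl16, Adam10 and Adam17, had means of 12.9 and 20.8 FPKM in BMDM and 20.0 and 30.8 in BSM, without overlap, and neither passed the threshold (limma adjusted p = 0.0582 and 0.0834). Both were higher in BSM after each of the 4 rescalings, and Adam10 also without BSM replicate 1 (limma adjusted p = 0.0491).

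**Figure D4:**
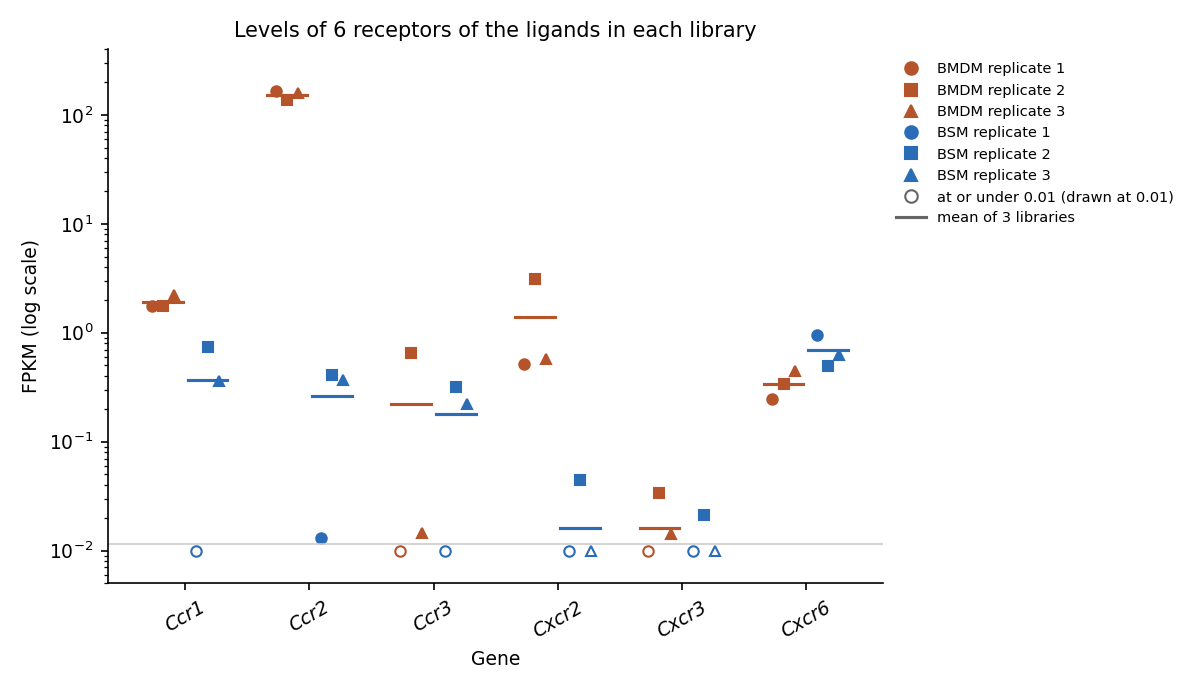
FPKM (y axis, log scale) of 6 receptors of the ligands (x axis) in 3 BMDM and 3 BSM libraries, with a symbol for each replicate and a line at the mean of the 3 libraries. Open symbols stand for values at or under 0.01. Ccr2 stands at 136 FPKM or more in BMDM and under 0.5 in BSM.

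Of 29 further chemokine ligand genes in the FPKM table, 13 were listed at 0 in every library and 5 reached an FPKM of 1 in any. These were the platelet chemokine Ppbp, with 0.663, 0.502 and 6.50 FPKM in BMDM and 0 to 0.0171 in BSM, and Cxcl9, a further CXCR3 ligand induced by interferon, with 0.126, 2.90 and 0.561 in BMDM and 0 to 0.0885 in BSM. Ccl25 (0.383 to 1.01 in BMDM, 0 to 0.117 in BSM), Ccl27a (highest at 1.45, in BMDM replicate 1) and Cxcl12 (highest at 1.38, in BSM replicate 1) each passed 1 in a single library. Under the minimum of 1, Ccl25 was higher in BMDM (log2 fold change 0.69, SE 0.22, limma adjusted p = 0.0367), a call that each of the 4 rescalings ended (limma adjusted p = 0.0940 to 0.143), and the other 4 were not called. Summed over the 29 genes the FPKM was 3.96 to 8.52 in BMDM and 0.963 to 1.46 in BSM.

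The genes whose levels over the 6 libraries were most like those of Ccl6, by Pearson correlation of log2(FPKM + 1), were Cdkn3, Ddx39 and C330027C09Rik (r = 0.9998, 0.9996 and 0.9996), and 2118 genes had an r above 0.9. For Ccl3 they included Yars (r = 0.99) and Xpot (r = 0.98), and 44 genes had an r above 0.9. All of these correlations run over the same 6 libraries of 2 cell types and are given as a description.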

How the data were processed

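For 3 BMDM and 3 BSM libraries, cDNA was made by the Ovation method and sequenced from both ends. Per the submitters' processing notes the authors used CASAVA 1.7.0, Bowtie 0.12.7, TopHat 1.3.1 and Cufflinks 1.0.3 with the mm9 build, and deposited FPKM for 35237 genes. They also deposited ALEXA-Seq signal for 36536 entries, on a linear scale whose unit and scaling are not given in the sources used here. Neither holds counts per gene. The study gives mapped reads per library, but the reads behind a value are not known. Starts in the FPKM table count from 0 and are given here counted from 1.

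Genes that reached 3 FPKM in any library were tested with limma 3.58.1 in R 4.3.3 (mean-variance trend) on log2(FPKM + 1), BMDM minus BSM, with Benjamini-Hochberg adjustment over all 6364 and a threshold of 0.05. As many genes, by highest value, were tested in ALEXA-Seq. The model was tested on simulated data. Upstream windows came from RefSeq (GRCm38.p6), and copies were sought with blastn 2.17.0 in GENCODE M21 transcripts. The labels call the samples biological replicates. The 10 ligands, the other lists and the rule for genes to name (all 10 ligands and their receptors, other ligands and atypical receptors that reach an FPKM of 1, and the 3 genes most like the highest ligand of each cell type) were chosen with earlier results of these data known. Of the genes that rule names, 2 are not reported here. Each test was repeated with a pseudocount of 0.1, other minimums, other scalings, no trend, the replicate number as a block and without each library. Scaling to the same sum without mitochondrially encoded genes, the same-sum scaling of ALEXA-Seq, the alternatives run under an FPKM minimum of 1, and the rescaled counts of the gene lists were chosen after the data were seen.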

Additional observations from a re-analysis of the deposited data

How the results depend on the processing

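Ccl6 and Ccl9 kept a higher level in BMDM, and Ccl12 a higher level in BSM, past the threshold under all 15 alternatives of the FPKM comparison and all 11 of ALEXA-Seq, and Ccl4, Cxcl16 and Cxcl10 kept their calls under the 14 alternatives run with an FPKM minimum of 1. None of these 6 ligands, nor Ccl2 or Ccl3, changed direction under the alternatives run for it, and neither Ccl7 nor Cxcl2 did under the 4 rescalings run without a minimum. Ccl12, Ccl4, Cxcl16 and Cxcl10 were admitted only through the group in which they were higher, and Ccl12 and Ccl4 also in ALEXA-Seq. The genes tested stayed the same without each library, so these repeats do not test that admission. Of the ligands, 3 were called in FPKM, against 6 with a minimum of 1 or none and 5 with upper quartile scaling, quantile normalization, or the same sum with or without the mitochondrially encoded genes, and 3 to 4 without each library in turn. Higher in BSM was 1 ligand, Ccl12, against 3 under each of those 6 settings. The count was 2 with the replicate block and 1 to 2 without each library, where the second was Ccl3. After rescaling, Ccl3 and Ccl2 were added. With a minimum of 1 or none, Ccl4 and Cxcl16 were added, and Ccl3 and Ccl2 were not called. In ALEXA-Seq 5 ligands were called, 4 to 5 without each library, and the call of Ccl3 was also lost with a pseudocount of 0.1 (limma adjusted p = 0.0504) and with no minimum (0.113).

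Over all genes, 2883 were higher in BMDM and 587 in BSM, against 1379 and 1051 with upper quartile scaling, 1370 and 1234 with quantile normalization, 968 and 1585 with the same sum and 1286 and 1104 with the same sum without the mitochondrially encoded genes. In ALEXA-Seq 2359 and 691 became 1436 and 1353 with quantile normalization and 843 and 1920 with the same sum, and the calls numbered 1971 to 3984 without each library in turn, against 3050. In FPKM they numbered 2498 to 3932 without each library, against 3470.

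The replicate block was checked because the labels give both cell types replicates 1 to 3. The deviations of same-numbered libraries from their group means correlated at -0.019, -0.0084 and 0.13, so the libraries were not taken as pairs, although replicate 1 of both cell types also shares the male sex, and not every library correlated best with its own number. With the block 3471 genes were called, and Ccl3 had an adjusted p of 0.0343 in limma. Without counts per gene, the precision of the low values of Ccl7, Cxcl2 and Cxcl10, and of Ccl4 in BMDM, is unknown.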
